A study of Mus musculus with 22 samples.

Results

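The genes described here are 35 genes of the lysosome, chosen by symbol from the 23453 genes of the count table, and all 35 had a row and a read in at least 5 of the 22 cells. They comprise 10 proteases, 9 glycosidases, 6 lipid enzymes and luminal cofactors, 9 membrane proteins and the transcription factor *Tfeb*. RNA had been sequenced from 22 single astrocytes of primary cortical cultures, each culture made from a single newborn C57BL/6 mouse pup, and every cell was exposed to ethanol (EtOH) while its calcium was imaged with the dye Fluo-4. The cells fall into 4 groups by their calcium response: 6 S-type cells with a slow rise and slow decay, 6 T-type cells with a transient rise, 5 M-type cells with a mixed response, and 5 NR cells that did not respond. All groups share strain, age, region, culture method and EtOH exposure, so NR is a non-responding group and not an untreated one. The sample titles carry numbers that run in a separate block for each type. An effect that followed these numbers could not be told apart from type. The cultures had been shaken and treated with cytosine arabinoside to remove other cells such as microglia, and a cell was picked by its calcium trace, with no label naming the animal or coverslip it came from. Each type therefore counted as 1 sample, no test between types was run, and differences are given with the values of single cells and with the ratio left when any 1 cell is removed.

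Lysosomes are acidic organelles in which hydrolases break down proteins, sugars and lipids delivered by endocytosis and autophagy. Their membrane proteins shield the boundary, move the products out and release calcium, and transcription factors of the TFEB family switch on many lysosomal genes together through a short promoter sequence. Loss of several of these enzymes causes lysosomal storage diseases of the brain.

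A cell had between 2937786 and 22131076 reads in all. Counts were divided by a size factor per cell, and the mean of these normalized counts over the cells of a type is called its level. Size factors lay between 0.183 and 1.56 in T-type and between 0.923 and 2.31 in the other types, so that the same number of reads weighed more in some T-type cells, above all in T-type cells 2 and 3. Reads of the 12 astrocyte markers, led by *Vim*, *Fabp7* and *Slc1a3*, were found in every cell and summed to between 4874 and 24111 CPM (reads scaled to a cell total of 1000000). The 17 microglial markers, led by *Laptm5*, *Mpeg1* and *Ctss*, summed to at most 9.41 CPM in S-type and 4.84 CPM in M-type, but reached 142 CPM in T-type and 249 CPM in NR. *Aif1*, *P2ry12*, *Tmem119* and *Csf1r* were among the 9 microglial markers without a read in S-type. Of these, *P2ry12* also had no read in M-type and NR, *Csf1r* none in M-type and *Tmem119* none in T-type. Most of the 17 microglial markers were read outside S-type: 16 in T-type, 16 in NR and 15 in M-type, against 8 in S-type. Other lists were read too: neuronal markers reached 2076 CPM in S-type cell 2, which had the lowest astrocyte sum, oligodendrocyte-lineage markers 3329 CPM in T-type cell 3, mural cell and fibroblast markers 7450 CPM in S-type cell 5, and endothelial markers 200.005 CPM in T-type cell 5. The mural and fibroblast markers had a median of 366 CPM in NR, where M-type had 1431, S-type 1348 and T-type 1668. Their medians thus differed in the comparisons to NR, but the single cells overlapped. The cells ran from 211 to 1442 CPM in NR and from 33.9 to 2270 in M-type. In S-type they ran from 206 to 7450 and in T-type from 95.4 to 4710. Fewer genes had a read in T-type cells, from 6319 to 10614 with a mean of 8796, than in S-type (mean 11164), M-type (11021) and NR (11091), and the members with a read averaged 29.2 in T-type and 33.2, 33.2 and 33.4 in the others. Microglia also express lysosomal genes, and the part of such reads, of mural markers and of detection in the results was not tested.

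The lysosomal genes took the largest mean share of the reads in NR cells. NR cells had a share of 1.14% ± 0.454 (SD over 5 cells), M-type cells 0.731% ± 0.151 (5 cells), S-type cells 0.786% ± 0.215 (6 cells) and T-type cells 0.552% ± 0.355 (6 cells). The 5 NR cells had 1.48%, 1.15%, 1.34%, 0.362% and 1.38%. The 5 M-type cells had 0.789%, 0.628%, 0.737%, 0.945% and 0.554%. In S-type the share ran from 0.564% to 1.15% with a median of 0.778%, and in T-type from 0.229% to 1.18% with a median of 0.469%. NR cells 1, 2, 3 and 5 thus lay above all M-type cells, while NR cell 4 lay below every S-type and M-type cell, and T-type cell 6 lay among the NR cells. The exact 95% interval of a cell's share was at most 0.0192 percentage points wide, which covers counting error only: the reads were amplified and carry no molecular identifiers. The summed microglial markers of NR cells 1 to 5 were 105, 131, 3.45, 249 and 0.792 CPM, so NR cell 1 joined a microglial sum of 105 CPM to the highest lysosomal share of all cells, and NR cell 4 the highest microglial sum to the lowest share of its type. Their part in the shares was not tested.

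**Figure D1:**
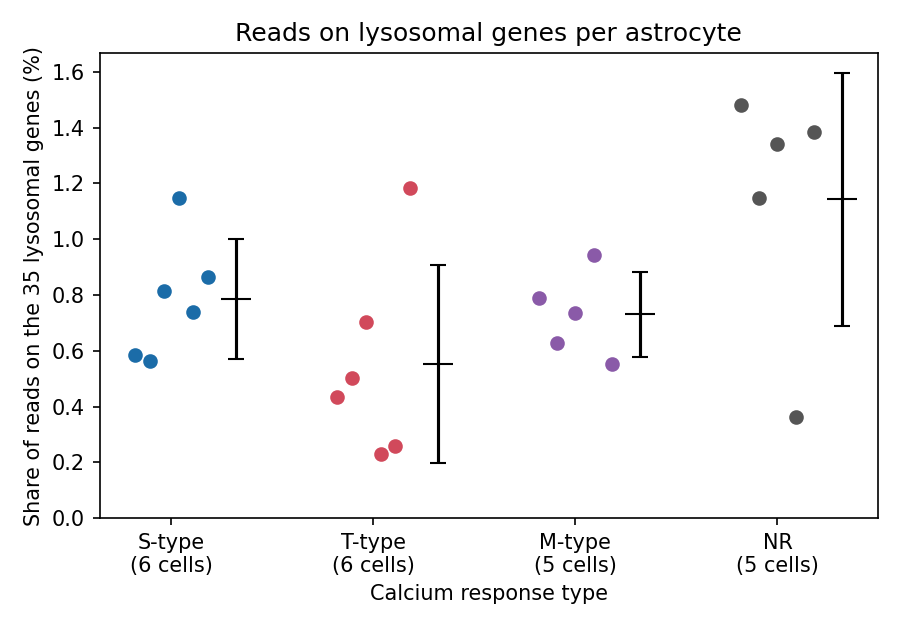
Share of each cell's reads that fell on the 35 lysosomal genes, in percent, by calcium response type; each point is 1 astrocyte, and the bar to the right of each group is the mean with the SD over its cells. NR cells lay between 1.15% and 1.48% except NR cell 4 at 0.362%, and T-type cells lay between 0.229% and 1.18%.

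Proteases held most of the difference in share. The 10 proteases took 0.561% ± 0.214 of the reads in NR, against 0.353% ± 0.0943 in S-type, 0.309% ± 0.0503 in M-type and 0.212% ± 0.173 in T-type. The 9 membrane proteins differed less, with 0.389% ± 0.177 in NR, 0.302% ± 0.103 in S-type, 0.303% ± 0.0829 in M-type and 0.254% ± 0.124 in T-type. The lipid enzymes and cofactors took 0.148% ± 0.0855 in NR and 0.0627% ± 0.0467 in T-type, and the glycosidases 0.045% ± 0.0152 in NR and 0.0232% ± 0.0309 in T-type. Without T-type cell 6 the glycosidase share of T-type was 0.0107%, the other 5 cells lying between 0.00801% and 0.0192%, and the protease share was 0.146%. In each of these role groups the mean ± SD ranges of NR and T-type overlapped when all cells were kept.

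The genes differed widely in level. Per kilobase of exon, *Laptm4a*, a lysosomal transmembrane protein, was highest at 5844 normalized counts, followed by *Lamp1*, a main glycoprotein of the lysosomal membrane, at 4743, *Ctsl*, a cysteine protease, at 3630, the tetraspanin *Cd63* at 2474, and *Ctsb*, another cysteine protease, at 2290. The 5 members with the most reads took 66.3% of all lysosomal reads, and *Ctsl* alone 24.6%. *Tfeb* was last, with 0.469 normalized counts per kilobase and 89 reads in the 22 cells together. A read of 19 members was found in all 22 cells (54.3%, against 28.9% of the 12719 genes compared), and a cell held a read of 25 to 35 members. The 5 members without a read in at least 5 cells were *Ctsk*, read in 6 cells, *Tfeb*, read in 11, and *Ctsf*, *Gla* and *Manba*, each read in 17.

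**Figure D2:**
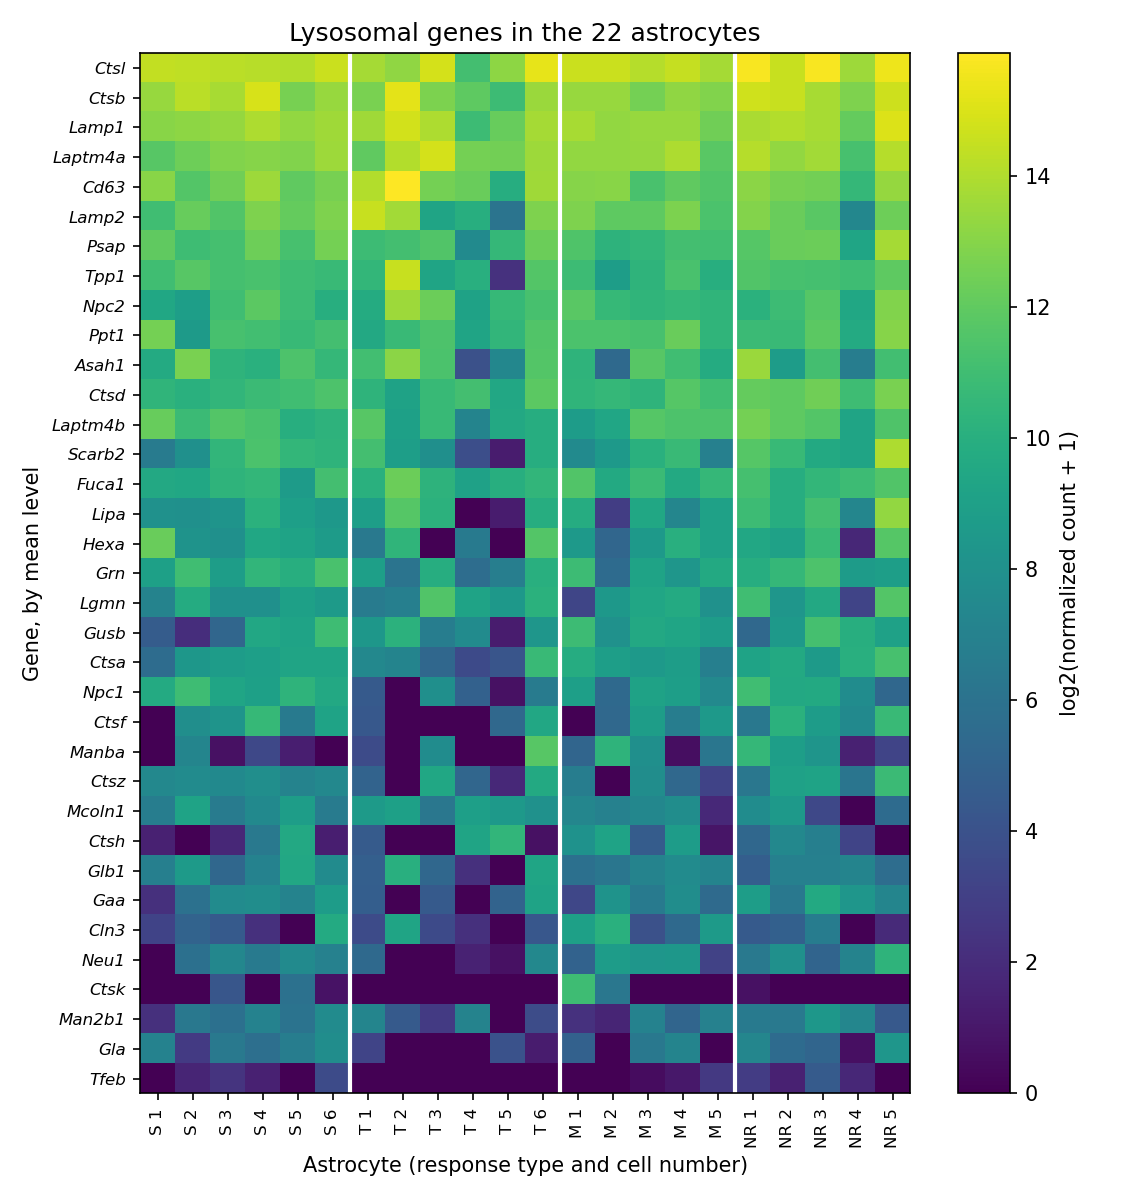
Normalized counts of the 35 lysosomal genes (rows, by mean level) in the 22 astrocytes (columns, by response type and cell number), on the scale log2(normalized count + 1). *Ctsl*, *Ctsb* and *Lamp1* were high in nearly every cell, *Tfeb* and *Ctsk* were at 0 in all 6 T-type cells, and NR cell 4 was low in *Lamp2* and *Hexa*.

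Against NR, most lysosomal genes had a lower level in all 3 responding types. The median log2 ratio of the 35 genes was -0.92 for T-type versus NR, -0.58 for S-type versus NR and -0.87 for M-type versus NR, while the median of all genes compared was -0.05, 0.03 and -0.20. Of the 35 genes, 22 lay below NR in all 3 responding types, a pattern that 26.5% of all genes compared showed, and 6 lay above NR in all 3 (22.9% of all genes). NR was the type with the highest level for 22 members, against 26.6% of all genes, and T-type the type with the lowest level for 16, against 32.5% of all genes. The 3 comparisons share the same 5 NR cells, and without NR cell 5 the median ratios were -0.34 for T-type, -0.24 for S-type and -0.76 for M-type.

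**Figure D3:**
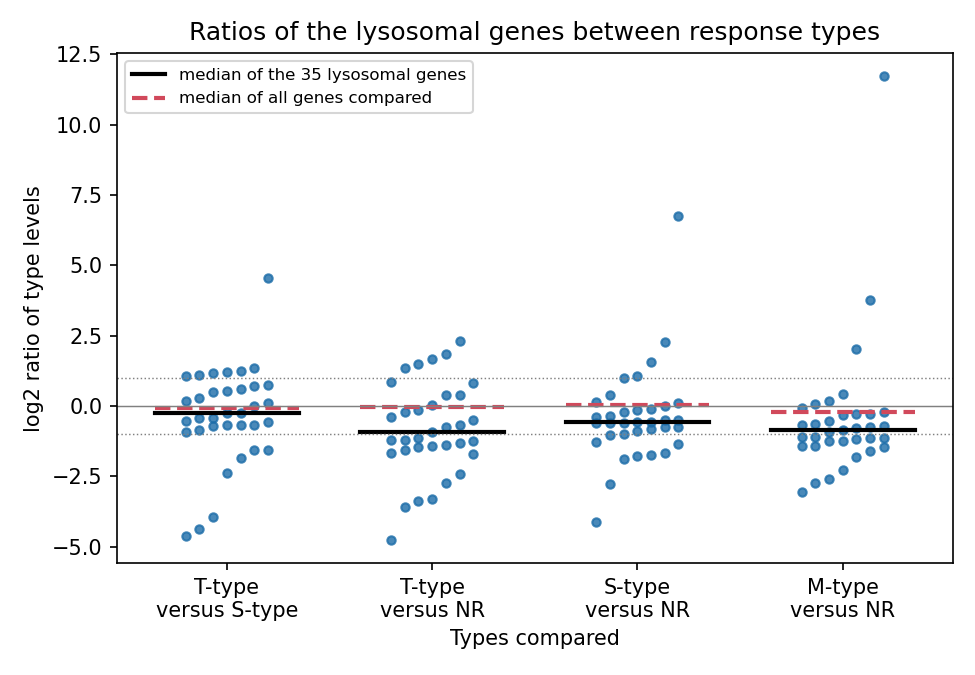
Log2 ratio of type levels for each lysosomal gene (points) in the 4 comparisons, with the median of the 35 genes (solid line) and of all 12719 genes compared (dashed line); dotted lines mark a 2-fold ratio, and *Ctsk* is left out of T-type versus NR, where it had 1 read in all. The solid line lies below the dashed line in every comparison, by least in T-type versus S-type.

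The number of members past a 2-fold ratio in the lower direction was 17 of 35 for T-type versus NR (48.6%, against 32.4% of all genes), 10 of 35 for S-type versus NR (28.6%, against 22.4%) and 16 of 35 for M-type versus NR (45.7%, against 28.1%). In the higher direction it was 6 for T-type (17.1%, against 28.6% of all genes), 5 for S-type (14.3%, against 25.1%) and 3 for M-type (8.57%, against 19.8%). Without NR cell 5 the lower count for S-type was 5, and the higher count for S-type was 2 without S-type cell 5 and 3 without NR cell 4 or NR cell 5. The higher count for T-type was 3 without T-type cell 2. *Ctsk* counts among the 6 only through the floor of 3 reads given to a type without a read, since it had no read in T-type and 1 in NR. Among the 18 members at or above the median member level, 7 were at least 2-fold lower in T-type (38.9%, against 12.3% of all genes of that level), 3 in S-type (16.7%, against 11.1%) and 7 in M-type (38.9%, against 11.8%). No member had all cells of one type above all cells of the other against NR, where 0.991% of all genes did so for T-type, 0.409% for S-type and 0.598% for M-type. With any 1 cell left out, 9 members stayed at least 2-fold lower in T-type (against 17.2% of all genes), 3 in S-type (7.90%) and 5 in M-type (11.3%).

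Cathepsin D, encoded by *Ctsd* and the main aspartic protease of the lysosome, was at least 2-fold lower than NR in all 3 responding types and remained so when any single cell was left out, as the 1 member to do so (2.86%, against 2.00% of all genes). It is described here because of these values. The 5 NR cells had 4506, 3850, 5403, 1961 and 6656 normalized counts, and the 5 M-type cells 1319, 1508, 1273, 3228 and 2024. S-type cells ran from 1071 over a median of 1599 to 2721, and T-type cells from 573 over a median of 1472 to 3743. All NR cells but cell 4 thus lay above all 17 responding cells, as 4 or more NR cells did for 0.149% of all genes. The log2 ratio to NR was -1.39 for T-type (95% counting interval -1.42 to -1.35), -1.37 for S-type (-1.40 to -1.34) and -1.26 for M-type (-1.29 to -1.23), and over all cells left out in turn it stayed between -1.78 and -1.07. Of the bases in *Ctsd* exons (chr7:142375911-142388038, GRCm38, minus strand), 34.4% are also annotated to *Gm49369* on the same strand, so reads there cannot be assigned to one of them.

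*Ctsl*, the most read lysosomal gene, had 54327, 23553, 53286, 11927 and 45449 normalized counts in the NR cells. S-type cells were close together, from 17129 to 25275 with a median of 19984, and M-type cells had 24674, 25157, 17642, 22279 and 13565. T-type cells were spread from 2269 over a median of 11636 to 39069. NR cells 1, 3 and 5 lay above all 17 responding cells, and NR cells 2 and 4 among them. The log2 ratio of T-type to NR was -1.13 (-1.14 to -1.12), and with any 1 cell left out it lay between -1.55 and -0.90, so the 2-fold ratio was lost without T-type cell 4, NR cell 1 or NR cell 3. *Ctsb* had a mean level of 19617 ± 8556 in NR and 9078 ± 2255 in M-type, a log2 ratio of -1.11 (-1.12 to -1.10) that was -0.97 without NR cell 1.

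For *Scarb2* and *Lipa* the NR level rested largely on 1 cell. *Scarb2* encodes LIMP-2, which carries glucocerebrosidase to the lysosome, and its NR cells had 3292, 1681, 799, 623 and 15228 normalized counts. NR cell 5 held 70.4% of that sum. M-type cells had 193, 370, 1095, 1752 and 118, S-type cells ran from 96.8 to 2625, and T-type cells from 1.30 to 2223. The log2 ratio to NR was -2.74 for T-type, -1.88 for S-type and -2.62 for M-type, and without NR cell 5 it was -1.30, -0.45 and -1.18. *Lipa*, the acid lipase that cleaves cholesteryl esters and triglycerides, had 1884, 957, 2259, 153.7 and 10234 in the NR cells and 912, 6.30, 707, 157 and 542 in the M-type cells. Its log2 ratio was -1.67 for T-type, -2.76 for S-type and -2.74 for M-type, and -0.43, -1.52 and -1.50 without NR cell 5.

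The carboxypeptidase *Ctsz* had 77.1, 549, 579, 71.8 and 1772 normalized counts in the NR cells and 104, 0, 216, 40.5 and 8.21 in the M-type cells. S-type cells lay between 134 and 232. Its log2 ratio to NR was -3.05 for M-type (-3.17 to -2.93), the lowest of any lysosomal gene in that comparison, -1.75 for S-type and -1.22 for T-type. Without NR cell 5 these became -2.12, -0.81 and -0.29. *Gaa*, the acid alpha-glucosidase that degrades glycogen, and *Ctsa*, a protective protein for other enzymes of the lumen, were also at least 2-fold lower than NR in all 3 responding types, as were *Ctsd*, *Ctsz*, *Lipa*, *Scarb2* and *Tfeb*. These are 7 of 35 members, against 9.47% of all genes compared. The log2 ratio of S-type to NR was -1.02 for *Gaa* and -0.49 without NR cell 3, and -1.29 for *Ctsa* and -0.72 without NR cell 5. With CPM the *Gaa* ratio was -0.97.

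*Npc1*, the membrane transporter that moves cholesterol out of the lysosome, was the 1 lysosomal gene whose T-type and S-type cells did not overlap, where 0.771% of all genes did not. S-type cells ran from 514 over a median of 790 to 1937 normalized counts, and T-type cells from 0 over a median of 25.1 to 235. The log2 ratio was -3.96 (-4.16 to -3.77, from 228 reads in T-type and 7020 in S-type), and between -5.06 and -3.66 with any 1 cell left out. The 5 M-type cells had 490, 42.7, 558, 482 and 179, and the 5 NR cells 2018, 774, 783, 206 and 38.0, so that T-type overlapped both. *Npc2*, the luminal partner that hands cholesterol to *Npc1*, went the other way: its T-type level was 3752 ± 4406 against 1624 ± 1183 in S-type, a log2 ratio of 1.21, of which 0.35 was left without T-type cell 2.

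Among the 35 genes, the median log2 ratio of T-type to S-type was -0.26, against -0.07 for all genes compared. In T-type 7 members were at least 2-fold higher (20.0%, against 26.0% of all genes) and 7 at least 2-fold lower (20.0%, against 32.2%). With CPM in place of size factors the same counts were 1 higher and 14 lower. CPM also moved the median of all genes from -0.07 to -0.44. The members' median relative to it went from -0.19 to -0.31, so the change in counts was in part a shift of all genes. The share of all genes past 2-fold with CPM is not given. The direction of 7 members, among them *Lamp1*, *Lamp2* and *Tpp1*, changed with the scaling. Without any 1 cell in turn, 6 of the 7 lower members stayed at least 2-fold lower, namely *Ctsk*, *Gla*, *Npc1*, *Grn*, *Neu1* and *Tfeb* (17.1% of the members, against 19.1% of all genes), and none of the 7 higher members stayed at least 2-fold higher, as 6.62% of all genes did. Without T-type cell 2 the members at least 2-fold higher numbered 3 and without S-type cell 1 they numbered 4, the lower ones numbered 11 without T-type cell 6, and the median ratio was 0.045 without S-type cell 6.

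*Gla*, the alpha-galactosidase deficient in Fabry disease, was lowest in T-type. Of the 6 T-type cells 3 had no read, and the others had 8.45, 14.9 and 1.28 normalized counts. S-type cells ran from 5.42 over a median of 95.3 to 221, the M-type cells had 30.0, 0, 82.5, 144 and 0, and the NR cells 152, 45.4, 35.2, 0.598 and 326. The log2 ratio was -4.62 to S-type (-5.18 to -4.10) and -4.77 to NR (-5.34 to -4.25), from 31 T-type reads, and it stayed at or below -3.83 without any 1 cell. *Grn* encodes progranulin, a secreted and lysosomal protein whose loss causes a form of neuronal ceroid lipofuscinosis. Its T-type cells had 487.0, 68.9, 938, 49.3, 108 and 1029 normalized counts, and its S-type cells 508, 2025, 457, 1402, 995 and 2594, so the types overlapped, at a log2 ratio of -1.57 (-1.64 to -1.51) that lay between -2.01 and -1.27 with any 1 cell left out. *Neu1*, a sialidase, had no read in 2 T-type cells and at most 169 normalized counts in the others, and its log2 ratio to NR of -3.32 became -1.80 without NR cell 5. NR cell 5 held 72.2% of the NR sum of *Neu1*.

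The 7 members at least 2-fold higher in T-type than in S-type were each below 2-fold once 1 cell was left out, and 3 of them are given with their cells. *Cd63* had 59817 normalized counts in T-type cell 2 and between 958 and 16709 in the other T-type cells, against 3179 to 12149 in S-type, and its log2 ratio of 1.34 was 0.30 without that cell. *Manba*, a beta-mannosidase, had 3485 in T-type cell 6, which was 94.1% of the T-type sum, and its log2 ratio of 4.54 (4.31 to 4.78) became 0.72 without it. The S-type cells had 0, 147, 0.609, 9.64, 1.57 and 0 normalized counts of *Manba*, and the NR cells 1546, 471, 314, 1.79 and 8.34. Against NR the S-type ratio was -4.14 on the log2 scale and at most -2.90 with any 1 cell left out. *Ctsh*, a cathepsin with aminopeptidase activity, had 1369 and 611 in T-type cells 5 and 4 and at most 22.5 in the other T-type cells. Its log2 ratio to S-type was 1.25 and turned to -0.14 without T-type cell 5.

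Few members were higher than NR. *Ctsh*, *Cln3* and *Ctsk* were at least 2-fold above NR in all 3 responding types by level, or by the floor in the case of *Ctsk* in T-type, where 7.41% of all genes compared were. None of them stayed so in all 3 types with any 1 cell left out, as 1.42% of all genes did. *Ctsh* had 277, 597, 23.4, 442 and 0.864 normalized counts in the M-type cells and 38.2, 172.4, 114, 8.37 and 0 in the NR cells, a log2 ratio of 2.01 (1.87 to 2.15) that was at least 1.48 without any 1 cell. In S-type, cell 5 had 752 of the *Ctsh* counts and the other cells at most 83.2, and the log2 ratio to NR of 1.07 turned to -1.91 without that cell. The T-type ratio to NR of 2.32 was 0.93 without T-type cell 5. *Cln3*, a membrane protein mutated in juvenile Batten disease, had 522, 1071, 14.5, 42.5 and 406 in the M-type cells and 21.9, 28.4, 100, 0 and 2.78 in the NR cells, a log2 ratio of 3.75 (3.55 to 3.95). In S-type and T-type the *Cln3* level came from 1 cell each, with 823 normalized counts in S-type cell 6 and 609 in T-type cell 2, and its log2 ratios of 2.27 and 1.83 turned to -1.23 and -1.78 without those cells. With CPM in place of size factors the T-type ratio of *Cln3* was -0.03. *Glb1*, a beta-galactosidase, had a log2 ratio to NR of 1.55 in S-type, which was 0.95 without S-type cell 5, and of 1.66 in T-type, which was 0.61 without T-type cell 2 and 0.74 with CPM.

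*Ctsk*, a collagen-degrading cathepsin, was read in 6 cells only. M-type cells 1 and 2 had 1970 and 78.4 normalized counts, S-type cells 3, 5 and 6 had 17.7, 59.6 and 0.742, NR cell 1 had 0.607 from 1 read, and the other 16 cells had none. The log2 ratio of S-type to NR was 6.74 with a counting interval of 4.23 to 12.1, and the T-type level was at least 20.9-fold lower than that of S-type. M-type cell 1 held 96.2% of the M-type sum. Markers of mural cells and fibroblasts, among which *Acta2*, *Col1a2* and *Pdgfrb* had the most reads, summed to between 33.9 and 7450 CPM over the 22 cells, and their part in the *Ctsk* reads was not tested.

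*Mcoln1*, the lysosomal channel that releases calcium from the organelle, had its highest level in T-type. T-type cells had between 76.4 and 515 normalized counts with a median of 393, and S-type cells between 96.5 and 581 with a median of 146. The M-type cells had 156.4, 123, 164.1, 217 and 2.59, and the NR cells 214, 364, 10.1, 0 and 45.4. The log2 ratio to NR was 1.49 for T-type (1.38 to 1.60) and 1.00 for S-type (0.89 to 1.12), and that of T-type was at least 1.17 without any 1 cell, the 1 lysosomal gene to stay at least 2-fold higher in T-type than in NR (2.86% of the members, against 8.88% of all genes). With CPM in place of size factors the log2 ratio to NR was 0.91 for T-type and 0.88 for S-type, both under 2-fold. The log2 ratio of T-type to S-type was 0.49 with size factors and 0.036 with CPM, so the lead over S-type depended on the scaling. The cells of the types overlapped, and across the 22 cells *Mcoln1* had a median correlation with the other members of -0.08.

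**Figure D4:**
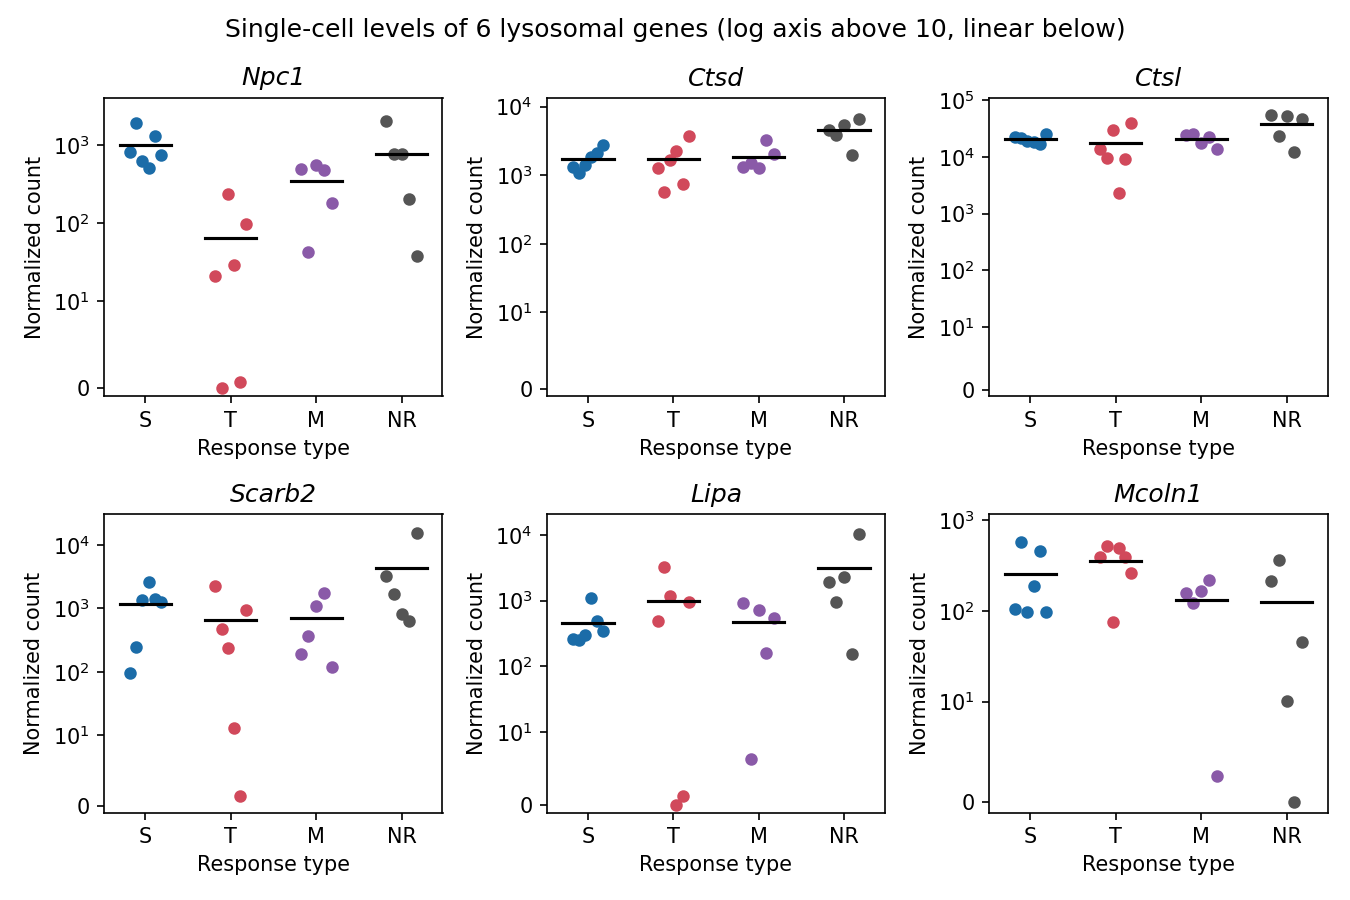
Normalized counts of 6 lysosomal genes in the single astrocytes of each response type (S, T, M and NR), with a line at the mean of each type; the axis is logarithmic above 10 and linear below. *Npc1* is lower in every T-type cell than in every S-type cell, *Ctsd* is higher in all NR cells but 1 than in every responding cell, and *Mcoln1* has its highest mean in T-type.

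*Tfeb* itself had few reads. It was read in 4 of 5 NR cells, at 6.07, 1.70, 22.3 and 2.39 normalized counts, in 4 of 6 S-type cells, at 2.17, 4.26, 1.75 and 11.1, and in 3 of 5 M-type cells, at 0.469, 1.04 and 5.18. None of the 6 T-type cells had a read, so that the T-type level was at least 5.17-fold lower than in S-type and at least 10.4-fold lower than in NR, where the floor of 3 reads comes to 0.622 normalized counts in T-type. T-type cells also had a read of fewer genes in all, and the part of this in the zeros of *Tfeb*, *Gla*, *Npc1* and *Ctsk* was not tested. The NR level rests on 48 reads, of which NR cell 3 gave 68.7% after normalization. The log2 ratio of S-type to NR, -1.01 (-1.76 to -0.29), turned to 0.34 without that cell. Of the other members of the family, *Tfe3* had mean levels of 34.97 in S-type and 45.2 in T-type against 7.76 in M-type and 16.5 in NR, *Mitf* had 1179 in NR and 212, 226 and 291 in S-type, T-type and M-type, and *Tfec* had 2 reads in all. The *Mitf* levels rested on single cells: 98.6% of the T-type sum came from T-type cell 3, 93.8% of the S-type sum from S-type cell 6 and 71.3% of the NR sum from NR cell 5. With any 1 cell left out the log2 ratio of *Mitf* to NR lay between -8.28 and -0.91 for T-type, -6.22 and -0.997 for S-type, and -3.10 and -0.54 for M-type. That of *Tfe3* lay between 0.02 and 2.05 for T-type and between 0.03 and 1.68 for S-type.

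Promoter windows of 250 bases before to 50 after the start were found in RefSeq (GRCm38.p6) for 30 of the 35 genes, all but *Ctsb*, *Ctsh*, *Npc1*, *Asah1* and *Laptm4b*. The motif of the TFEB family, TCACGTG on either strand, occurred in 9 of these 30 (30.0%), against 4.29% of 27025 genes with a window. Its core CACGTG, which lies within that motif, occurred in 11 (36.7%, against 8.09%) and the palindrome TCACGTGA, which holds both, in 5 (16.7%, against 1.12%). The stretches below show the gene with the most copies, *Lamp1*, one with a pair of palindromes, *Gla*, the channel *Mcoln1*, the single copy of *Glb1* and the farther of the 2 copies in *Ctsd*; capitals mark the 7-letter motif or the palindrome, and all bases lie before the start and outside the annotated exons of the gene.
Lamp1 (chr8:13159088-13159160, plus strand): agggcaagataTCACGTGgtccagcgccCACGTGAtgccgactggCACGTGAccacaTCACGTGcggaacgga
Gla (chrX:134601182-134601244, minus strand): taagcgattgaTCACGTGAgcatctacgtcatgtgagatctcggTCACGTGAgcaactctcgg
Mcoln1 (chr8:3500436-3500456, plus strand): ggtcgcgcttgTCACGTGttc
Glb1 (chr9:114401018-114401047, plus strand): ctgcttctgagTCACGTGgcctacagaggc
Ctsd (chr7:142388055-142388077, minus strand): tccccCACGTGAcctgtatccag

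In *Lamp1* the 4 cores began 61, 45, 28 and 15 bases before the start, and in *Gla* the 2 palindromes had cores 227 and 194 bases before it. *Mcoln1* held a second copy, a palindrome with its core 45 bases before the start, inside an annotated exon of the gene. *Ctsd* held its second copy, also a palindrome, 98 bases before the start. *Cln3*, *Ctsa*, *Gaa* and *Lgmn* held the motif too. The 9 genes with the motif and the 21 with a window but without it are set side by side as a description. Their median log2 ratios to NR were -0.51 and -1.13 for T-type, -0.60 and -0.62 for S-type, and -1.12 and -0.77 for M-type. At least 2-fold lower than NR were 4 of 9 and 11 of 21 in T-type (against 32.4% of all genes). In S-type they were 4 of 9 and 6 of 21 (against 22.4%), and in M-type 5 of 9 and 8 of 21 (against 28.1%). A match of these letters is not a measured binding site.

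**Figure D5:**
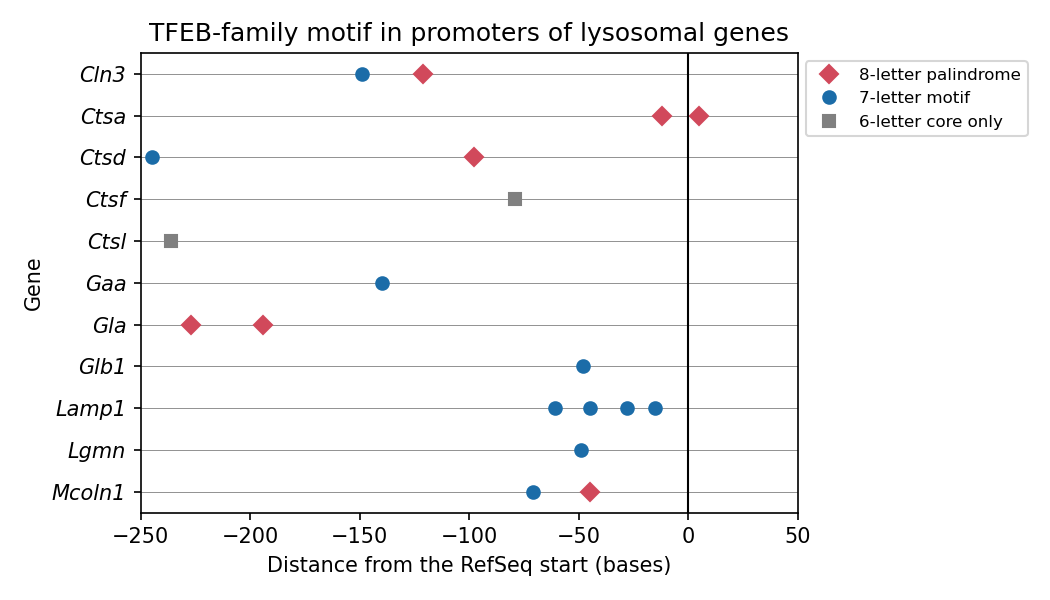
Position of the TFEB-family motif in the promoter windows of the 11 lysosomal genes that hold its core, as the distance in bases of the first core base from the RefSeq start; diamonds are the 8-letter palindrome, circles the 7-letter motif and squares the core alone. *Lamp1* has 4 copies, and all genes but *Ctsa* have their copies before the start only.

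Across the 22 cells, most pairs of lysosomal genes were positively correlated. The median correlation of log2(normalized count + 1) over the 595 pairs was 0.27, and 82.0% of the pairs were above 0. The 3019 genes at or above the median member level had a median of 0.0026 and 50.3% of pairs above 0. Only 18 of the 35 members lie at or above that level, so the sets are unlike in level. No value for these 18 members alone is given. The other lists had medians between -0.03 and 0.15, among them 25 other hydrolases (0.13), 16 subunits of the V-ATPase, the proton pump of the lysosome (0.09), and 31 proteasome subunits (0.06). The pair with the highest correlation of the 595 was *Ctsa* and *Neu1* (r = 0.85), whose products form a complex in which cathepsin A protects the sialidase. S-type cell 1 was low in both, with 47.1 normalized counts of *Ctsa* and 0 of *Neu1*. No correlation without that cell is given, and its part in the value was not tested. The pair with the lowest was *Ctsh* and *Lipa* (r = -0.54). *Scarb2* had the highest median correlation with the other members, 0.48, and *Ctsh* the lowest, -0.16. The cells share amplification, depth and size factors, so these values describe the 22 cells and carry no test.

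The share of reads on the lysosomal genes followed that on 16 chaperones of the endoplasmic reticulum, the site where these proteins fold (Pearson r = 0.69, Spearman rho = 0.75 over 22 cells, r = 0.66 without the 2 cells farthest from the median chaperone share). With the proteasome share r was -0.08 and rho 0.03 (r = 0.05 without the 2 farthest cells), with the V-ATPase share r was 0.49 and rho 0.54 (0.44), with the number of genes with a read r was 0.37 and rho 0.39 (0.37), with total reads r was 0.19 and rho 0.14 (-0.03), with the size factor 0.25 and 0.26 (0.19), with the summed astrocyte markers 0.14 and 0.10 (0.03), and with the summed microglial markers r was -0.18 and rho 0.04 (0.33). All are shares or sums of the same libraries, in which a rise of one gene lowers the share of the rest.

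Other genes of the pathway were taken from lists by function. The 25 other hydrolases compared had median log2 ratios to NR of -0.37 in T-type, -0.40 in S-type and -0.86 in M-type, with 8, 6 and 10 genes at least 2-fold lower (32%, 24% and 40%, against 32.4%, 22.4% and 28.1% of all genes) and 6, 4 and 2 at least 2-fold higher (24%, 16% and 8%, against 28.6%, 25.1% and 19.8%). The 16 V-ATPase subunits had medians of 0.02, 0.02 and -0.44, with 2, 0 and 2 genes at least 2-fold lower (12.5%, 0% and 12.5%). The 12 genes of sorting to the lysosome had -0.02, 0.05 and -0.36, and the 15 autophagy genes -0.04, -0.13 and -0.47. Among the 16 other lysosomal membrane proteins the medians were -0.71, -0.02 and -0.52, and *Mfsd8*, a membrane protein mutated in a form of Batten disease, had the lowest log2 ratio in T-type, -7.48 to NR and -6.21 to S-type. *Laptm5*, which is expressed by immune cells, microglia among them, had no read in S-type and 1.80 normalized counts in M-type, against 514 in T-type and 266 in NR. The T-type level of *Laptm5* rested largely on 1 cell. With S-type at the floor, its log2 ratio of T-type to S-type was 10.3, and 8.45 without T-type cell 2. That of S-type to NR was -9.37, and -8.52 without NR cell 4. A microglial marker is thus part of that list, and *Ctss*, another such marker, is part of the other hydrolases. For comparison, the medians of the proteasome were 0.23, 0.14 and -0.20 and those of the chaperones -0.09, -0.29 and -0.52.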

How the data were processed

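RNA of 22 single cells was amplified as antisense RNA, made into stranded libraries and sequenced as paired reads. The authors aligned to GRCm38 with STAR, counted exonic reads per gene and deposited these raw counts without normalization. The methods name VERSE as the counter, the submitters' processing notes list HTSeq, and versions and the use of strand are not given in the sources used here. Counts were whole numbers. Cells were grouped by the labels' response type, which matched the table for all 22.

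Size factors were medians of ratios over 3670 genes that no cell lacked (NumPy 2.4.6, pandas 2.3.3, Python 3.11.15). The 12719 genes read in 5 or more cells were compared by the log2 ratio of mean normalized counts, with a floor of 3 reads per type without a read. Intervals are exact binomial (SciPy 1.17.1), 95%. The calculation of ratios was checked on simulated counts with known folds. These varied by Poisson sampling only and lacked the spread between cells, so the check does not bear on that spread. Named were *Tfeb* and *Mcoln1*, the 5 members with the most reads per kilobase, non-overlapping members, the 3 largest ratios of at least 2-fold per direction and comparison at a mean level of at least 10, the extreme correlated pairs and members without a read in at least 5 cells; *Ctsd*, *Gaa*, *Grn* and *Npc2* were added after their values were seen. The members and lists were chosen with earlier results of these data known. Of 148 genes in the other lists, 147 were in the table. Alternatives were CPM, TMM (edgeR 4.0.16, R 4.3.3), medians over cells, a pseudocount of 1, dropping the filter, keeping mean levels from 10 up, thinning to 2937786 reads and leaving out each cell. Positions are from GENCODE vM21 and promoters from RefSeq.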

Additional observations from a re-analysis of the deposited data

Results flagged for a closer look

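Within each type, a cell was singled out by its gap to the nearest other cell, divided by the range of the type. This ratio had to exceed Dixon's 95% critical value, which normally distributed values do in about 1 of 20 groups. Counts with zeros need not follow that rate. Among 24 groups of shares and detection counts 1 passed: T-type cell 6 had 0.0856% of its reads on the glycosidases. For single genes the test was applied to log2(normalized count + 1), where 13 of 140 groups passed, and on the linear scale 35 did. NR cell 4 was low in *Lamp2* (164.5 normalized counts), *Hexa* (2.39) and *Laptm4a* (2459). S-type cell 1 was low in *Ctsa* (47.1), *Neu1* (0) and *Man2b1* (3.55) and high in *Hexa* (4826). T-type cell 4 was low in *Psap* (190) and T-type cell 3 in *Mcoln1* (76.4). M-type cell 1 was high in *Npc2* (3523) and low in *Lgmn* (8.76), and M-type cell 5 was low in *Mcoln1* (2.59). NR cell 1 was the 1 NR cell with a *Ctsk* read (0.607). With all other NR cells at 0 its gap is the whole range, so any read would have passed. The cause of these values was not tested.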

How the results depend on the processing

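Of 109 values under alternatives other than leaving out a cell, 97 stayed within the spread between cells or within 1.5 times the count, and the median ratio to NR was below 0 in 22 of 22. These alternatives use the same 22 cells. The median of all genes versus NR was -0.45 for T-type, 0.02 for S-type and -0.10 for M-type with CPM. With TMM it was -0.13, -0.05 and -0.13. The members' median lay below that of all genes with CPM and with TMM in each type. For T-type versus S-type, the 7 members at least 2-fold higher became 1 with CPM, 4 with TMM factors and with medians over cells, 2 with thinned cells, and 3 without the 3 T-type cells of smallest size factor, an alternative added after the values were seen; the 7 lower became 14 with CPM and with medians. For T-type versus NR, the 6 higher became 2 with CPM and 1 with medians, and for S-type versus NR the 5 higher became 2 with medians and 3 with thinned cells. The shares of all genes past 2-fold under these alternatives are not given. CPM moved the median of all genes in T-type versus S-type from -0.07 to -0.44, and the members' median relative to it from -0.19 to -0.31. In T-type versus NR it moved the median of all genes from -0.05 to -0.45, and the members' median relative to it from -0.87 to -0.77. Without *Ctsl* the M-type share was 0.548%. No paired analysis was possible because replicate numbers are only names of cells.

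Leaving out each cell put the NR share between 1.06% and 1.34%, that of M-type between 0.677% and 0.775%, that of T-type between 0.426% and 0.617%, and that of S-type between 0.714% and 0.831%. The median log2 ratio of T-type to S-type ran from -0.54 to 0.045, the direction being reversed without S-type cell 6; the medians ran from -1.23 to -0.34 for T-type, -0.76 to -0.24 for S-type and -1.04 to -0.76 for M-type versus NR. Members at least 2-fold higher numbered 3 to 7, 3 to 8, 2 to 5 and 3 in every fit, in that order, and lower 6 to 11, 13 to 20, 5 to 14 and 11 to 19; the counts that moved by over 1.5 times were those without T-type cells 2 or 6, S-type cells 1 or 5, or NR cells 4 or 5. *Tfeb* had 89 reads in the 22 cells together, so its ratios have wide counting intervals. The causes were not tested.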
